A study of Mus musculus with 12 samples.

Results

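The interferon-induced genes described here are 38 mouse genes known to be switched on by interferon. They were taken as a list of names, chosen with earlier results of these data known. All 38 had at least 1 probe, 52 probes in all, and 37 of them were among the 18101 genes whose signal was high enough to test. Their levels come from 12 Agilent 1-colour arrays of liver RNA. The mice were F2 males of the C3H/HeN strain, reared to about 74 weeks. The arrays form 4 groups of 3: arsenite tumour, arsenite non-tumour and arsenite normal liver, and control non-tumour liver. In the arsenite groups the F0 dams drank water with 85 ppm sodium arsenite between gestation days 8 and 18, whereas F0 dams of the control group drank plain tap water. The F1 mice of the arsenite line were carried by the F0 dams during that exposure. F1 males and females were mated at 10 weeks of age, and neither F1 nor F2 mice of any group were themselves given arsenite. The labels define normal and non-tumour liver by name only, and they do not say whether samples with the same number came from the same mouse. Pieces of whole tissue were profiled, so fewer cells of a type and less RNA per cell cannot be told apart. Tumours and normal liver of the control line were not analysed here, so no comparison of tumours between the lines is made.

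Interferons are secreted when cells sense viral or misplaced nucleic acid (type I and III) or when T and NK cells are activated (type II, interferon gamma). Their receptors signal through JAK kinases to STAT proteins. Type I and III interferons act through a complex, with STAT2 and IRF9 among its subunits, that binds the interferon-stimulated response element (ISRE), while interferon gamma acts mainly through the gamma-activated site (GAS). The induced genes encode nucleic acid sensors, transcription factors that extend the response, antiviral effectors, GTPases that attack the vacuoles of intracellular microbes, peptide processing for MHC class I, and chemokines that attract T cells. In liver, hepatocytes, Kupffer cells and endothelium all respond to interferon. Male C3H mice are known to develop liver tumours spontaneously with age.

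Levels are given as log2 of the array's processed signal relative to its own 75th percentile, so 0 is a signal at that percentile and 1 unit is a 2-fold step. Levels of different probes are not compared with each other. A difference is the mean of the first group minus that of the second with its standard error (SE), and a gene was called when its adjusted p was under 0.05 (limma, Benjamini-Hochberg over all genes tested). All 10 hepatocyte markers, Alb among them, passed the filter on dim probes. In arsenite tumours against arsenite non-tumour liver, 7 of these 10 had a negative difference, and 1 was called higher and 2 lower. In the same comparison 5 of 5 liver tumour markers, Afp among them, and 5 of 5 proliferation markers were higher. Over all genes 17.1% were called higher there and 30% lower. Tumour arrays correlated with other arrays at 0.905 to 0.934 across genes, whereas pairs of arrays without a tumour reached 0.986 to 0.993. Arsenite non-tumour and control non-tumour arrays shared 1 slide, arsenite normal arrays had a second slide and arsenite tumour arrays another. Slide and group therefore cannot be told apart in any comparison except arsenite non-tumour against control non-tumour. Nothing in the labels says that the 3 samples of a group came from separate animals, so p-values measure only the spread between these samples.

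Interferon-responsive promoter letters are shown first, as a description. Whether levels of members with and without such letters varied differently was not tested. A promoter window from RefSeq (GRCm38.p6, 250 bases before to 50 after the start) was found for 28 of the 38 members. Those without one were Dhx58, Zbp1, Usp18, Oas2, Mx1, Mx2, Rtp4, Parp14, Gbp6 and Iigp1. The ISRE core GAAANNGAAA, read on either strand, occurred in the window of 15 of the 28 members (53.6%), against 1079 of 27025 genes in the table (3.99%). The GAS core TTCNNNGAA, which reads the same on both strands in its fixed letters, occurred in 6 of the 28 (21.4%), against 2582 of 27025 genes (9.55%). Overlapping matches were counted separately, and 7 members had 2 or more ISRE matches. Stretches of 140 bases around the matches of 5 members are printed below 5′ to 3′ on the strand of the gene, with the matched letters in capitals. Isg15 (chr4:156200799-156200938, minus strand) has 3 overlapping ISRE matches, Ifit1 (chr19:34640769-34640908, plus strand) has 2 in the opposite orientation, Oas1a (chr5:120907506-120907645, minus strand) has 2 ISRE matches next to the start and 1 GAS match further upstream, Cxcl10 (chr5:92348980-92349119, minus strand) has 1 ISRE match, and Irf1 (chr11:53769894-53770033, plus strand) has 1 GAS match and no ISRE match. A match describes letters only and is not evidence of binding.
Isg15: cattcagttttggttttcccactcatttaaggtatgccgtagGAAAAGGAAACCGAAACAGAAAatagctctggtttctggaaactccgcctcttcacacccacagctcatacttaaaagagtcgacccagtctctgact
Ifit1: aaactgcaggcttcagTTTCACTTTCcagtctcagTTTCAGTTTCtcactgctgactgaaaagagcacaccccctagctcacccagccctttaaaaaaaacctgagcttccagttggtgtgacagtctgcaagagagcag
Oas1a: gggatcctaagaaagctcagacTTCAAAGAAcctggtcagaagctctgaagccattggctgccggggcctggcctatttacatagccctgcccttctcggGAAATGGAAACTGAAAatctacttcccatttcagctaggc
Cxcl10: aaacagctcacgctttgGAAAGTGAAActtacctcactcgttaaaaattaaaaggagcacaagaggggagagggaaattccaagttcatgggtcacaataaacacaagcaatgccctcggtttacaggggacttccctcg
Irf1: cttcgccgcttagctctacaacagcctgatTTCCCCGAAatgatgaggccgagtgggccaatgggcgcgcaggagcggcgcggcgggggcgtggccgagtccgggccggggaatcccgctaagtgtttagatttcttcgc
No ISRE or GAS match lay in the windows of Cxcl9, Oasl1, Oasl2, Irf7, Irf9, Ifi44, Xaf1, Lgals3bp, Psmb9 or Tap1, which says only that these letters are not in these windows.

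The most visible pattern over the 12 arrays was between samples of the same group. In arsenite tumours, sample 3 was the highest of its group for 35 of the 37 tested members, and in arsenite non-tumour liver sample 3 was the highest for 37 of 37. Over all genes tested, those same arrays were the highest of their group for 33.8% and 27.7% of genes. In arsenite normal liver sample 3 was the highest for 30 of 37 members (28% of all genes), and in control non-tumour liver for 14 of 37 (40% of all genes). Sample 2 was the lowest of its group for 30 members in arsenite tumours (23.8% of all genes), 29 in arsenite non-tumour liver (24%) and 33 in arsenite normal liver (34.3%). In control non-tumour liver it was the lowest for 17 members (27.5% of all genes). No group has more than 3 samples, so these counts describe the arrays, and genes are not independent replicates.

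**Figure D1:**
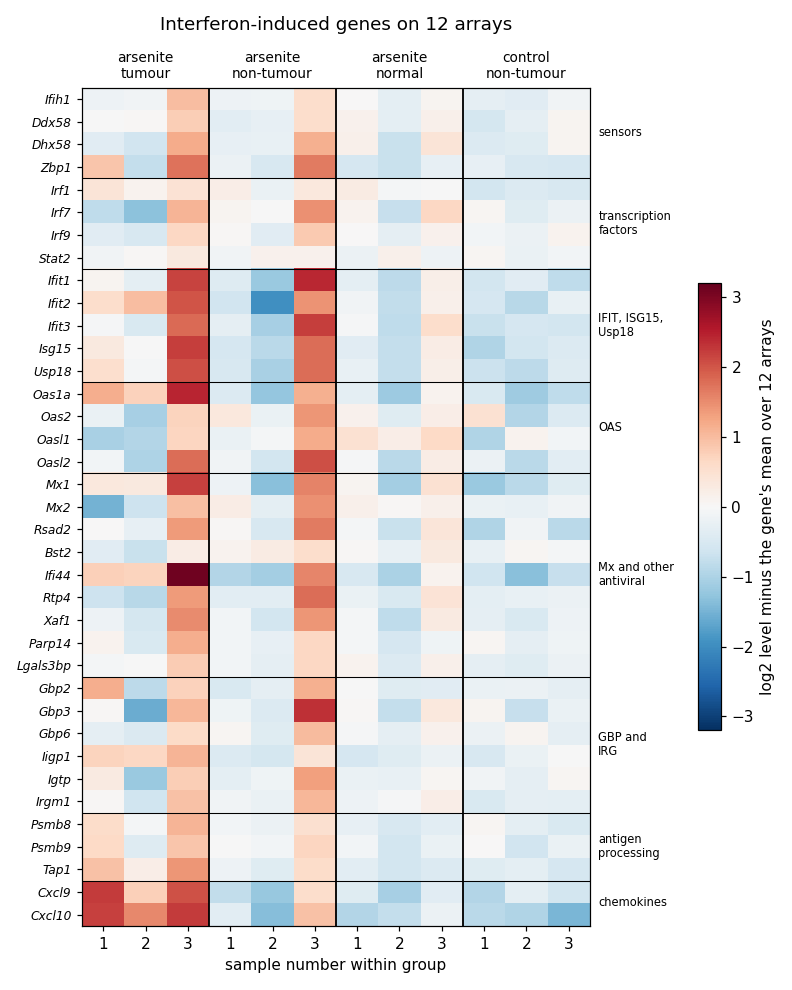
Each row is 1 of 37 interferon-induced genes and each column 1 of 12 arrays; colour gives the log2 level minus that gene's mean over the 12 arrays. Samples 3 of arsenite tumour and arsenite non-tumour liver are red in nearly every row, while the 3 control non-tumour columns stay near or below the mean.

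Isg15, which encodes a ubiquitin-like protein that is attached to other proteins and secreted, shows the pattern plainly. Its levels were 4.52, 4.18 and 6.40 in arsenite tumours, 3.67, 3.35 and 5.98 in arsenite non-tumour liver, 3.83, 3.44 and 4.43 in arsenite normal liver, and 3.25, 3.62 and 3.77 in control non-tumour liver. Sample 3 stood well above both other samples in arsenite tumours and arsenite non-tumour liver and less than 1 unit above them in arsenite normal liver. Ifit1, which recognises viral RNA lacking a host-type cap, had levels of -0.35, -0.76 and 1.71 in arsenite tumours, -0.86, -1.63 and 1.98 in arsenite non-tumour liver, -0.75, -1.27 and -0.26 in arsenite normal liver, and -1.04, -0.82 and -1.26 in control non-tumour liver. It had the largest spread of any member within groups, with a residual SD of 1.19.

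Over the 37 members, sample 3 exceeded the mean of samples 1 and 2 by a median of 1.35 in arsenite tumours (range 0.20 to 2.39), 1.49 in arsenite non-tumour liver (0.13 to 3.23), 0.35 in arsenite normal liver (-0.16 to 1.01) and 0.08 in control non-tumour liver (-0.56 to 0.66). The excess reached 1 unit for 24 members in arsenite tumours, 26 in arsenite non-tumour liver, 1 in arsenite normal liver and 0 in control non-tumour liver. By role, it was largest in both arsenite tumours and arsenite non-tumour liver for the group of Ifit1, Ifit2, Ifit3, Isg15 and Usp18 (medians 2.05 and 2.72). Antigen processing genes had smaller medians of 0.82 in arsenite tumours and 0.74 in arsenite non-tumour liver. Stat2 had 0.35 in arsenite tumours and 0.13 in arsenite non-tumour liver, and Irf1 had 0.20 and 0.32 in these groups. Both chemokines had a small excess in arsenite tumours, 0.56 for Cxcl9 and 0.38 for Cxcl10, and larger ones in arsenite non-tumour liver, 1.57 for Cxcl9 and 1.78 for Cxcl10.

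**Figure D2:**
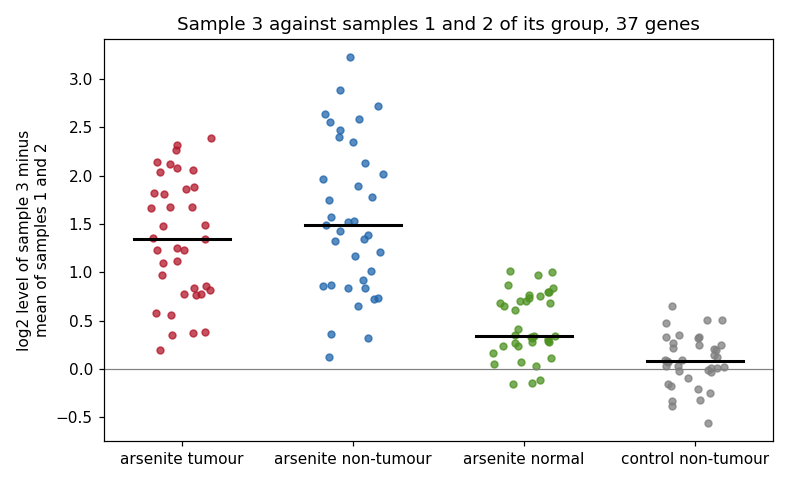
Each point is 1 of 37 genes; the vertical axis is its log2 level in sample 3 minus the mean of samples 1 and 2 of the same group, and black bars are medians. The bars stand at 1.35 in arsenite tumours, 1.49 in arsenite non-tumour liver, 0.35 in arsenite normal liver and 0.08 in control non-tumour liver.

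The same arrays stood out for interferon-induced genes outside the list, which were also chosen with earlier results of these data known. Of 53 other tested genes known to respond to interferon, sample 3 was the highest of its group for 41 in arsenite tumours and for 41 in arsenite non-tumour liver, with a median excess of 0.59 and 0.71. For the 11 tested genes of the receptor and kinase list these counts were 6 and 3, with medians of 0.11 and -0.09. The median SD of a member within its group was 0.886 in arsenite tumours, 0.886 in arsenite non-tumour liver, 0.332 in arsenite normal liver and 0.224 in control non-tumour liver, against 0.180, 0.149, 0.136 and 0.164 over all genes tested. The residual SD of the fit had a median of 0.698 over members and 0.190 over all genes, and 36 of 37 members lay above the latter, the exception being Stat2 with 0.177. This spread sets the precision of each comparison given next.

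Markers of other cells moved with these arrays to different degrees. Of 14 macrophage and Kupffer cell markers, sample 3 was the highest of its group for 6 in arsenite tumours and 9 in arsenite non-tumour liver. Their summed linear level, relative to each array's 75th percentile, was 95.1, 55.9 and 98.5 in arsenite tumours and 195, 154 and 211 in arsenite non-tumour liver. For 5 markers of all leukocytes, Ptprc among them, the sums were 13.6, 8.78 and 9.16 in arsenite tumours and 7.49, 7.13 and 11.1 in arsenite non-tumour liver. Gene by gene, sample 3 was the highest for 0 of these 5 in arsenite tumours and 4 of 5 in arsenite non-tumour liver. The 7 tested T and NK cell markers, Cd3e among them, summed to 130, 176 and 131 in arsenite tumours and to 56.3, 58.8 and 31.6 in arsenite non-tumour liver. Such a sum follows its brightest genes: gene by gene, sample 3 was the highest for 2 of these 7 in arsenite tumours and 3 of 7 in arsenite non-tumour liver, with a median excess of -0.19 and -0.04. For 5 proliferation markers, Mki67 among them, sample 3 was the lowest arsenite tumour, with sums of 11.2, 16.8 and 3.96. Of the plasmacytoid dendritic cell markers, whose cells are known as strong producers of type I interferon, 5 of 7 were tested, Siglech among them, with sums of 178, 229 and 222 in arsenite tumours and 166, 181 and 192 in arsenite non-tumour liver. Gene by gene, sample 3 was the highest for 1 of these 5 in each of the 2 groups. The median excess was 0.14 in arsenite tumours and -0.06 in arsenite non-tumour liver. Of 8 endothelium markers, sample 3 was the highest for 6 in arsenite tumours and 3 in arsenite non-tumour liver, with a median excess of 0.28 and 0.08. The part of any of these cells in the pattern was not tested.

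Arsenite tumours were first compared with arsenite non-tumour liver, which asks how tumours differ from the non-tumour liver of the same exposure. Of the 37 members, 5 were called higher and 0 lower, where over all genes tested 17.1% were called higher and 30% lower. The 5 were both T cell chemokines (Cxcl9 and Cxcl10), the GTPase Iigp1, the peptide transporter subunit Tap1 and the RNA-sensing synthetase Oas1a. The median difference over the 37 members was 0.15, and over all genes -0.13. A share of 5 in 37 is close to the share of all genes called higher, and 3 members (Cxcl9, Cxcl10 and Iigp1) had groups that did not overlap with tumours higher, which held for 20.5% of all genes.

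Samples with equal numbers in these 2 groups also varied together over the whole array, so the comparison is given with the number as a block as well. The labels do not state this pairing. It was chosen from these same arrays, and p-values with the block do not allow for that choice. With the block, on the 6 arrays of these groups, 8 members were called higher and 4 lower, where 15% of all genes were called higher and 24.4% lower. The block added Ifi44, Isg15 and Usp18 to the higher members. Those called lower with the block were Irf7, Oas2, Oasl1 and Rtp4. Within numbers, the difference had the same sign in all 3 for 22 members, positive for 14 (37.8%, against 27.3% of all genes) and negative for 8 (21.6%, against 44.5%).

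**Figure D3:**
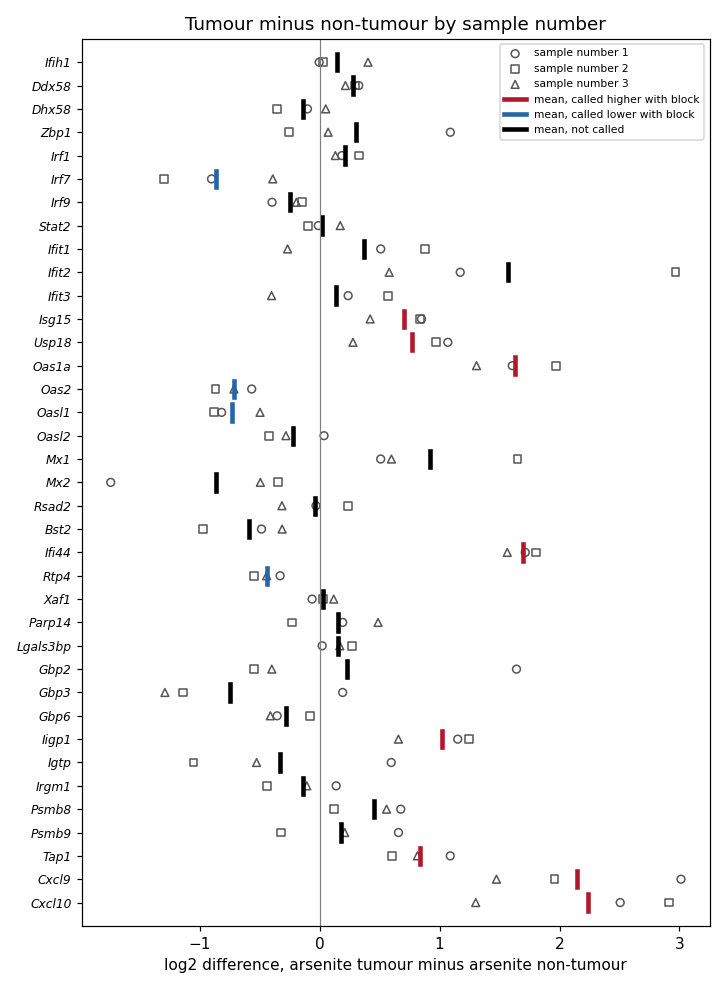
For each of 37 genes the open symbols give the log2 level in an arsenite tumour minus that in the arsenite non-tumour sample of the same number (1 circle, 2 square, 3 triangle); the bar is their mean, red or blue where called higher or lower with the number as a block. Ifi44, Oas1a and the chemokines lie to the right in all 3 numbers, and Irf7, Oas2, Oasl1 and Rtp4 to the left.

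The chemokines showed the largest differences. Cxcl9, a T cell attractant induced chiefly by interferon gamma (probe at chr5:92752191-92752250, mm9), had levels of 3.01, 1.53 and 2.82 in arsenite tumours, against -0.01, -0.43 and 1.35 in arsenite non-tumour liver, a difference of 2.15 ± 0.48 (SE, adjusted p = 0.0041). Cxcl10, a ligand of the same receptor that responds to all interferon types (probe at chr5:92775781-92775840, mm9), had 2.69, 2.05 and 2.75 in arsenite tumours, against 0.18, -0.86 and 1.44 in arsenite non-tumour liver, a difference of 2.24 ± 0.48 (adjusted p = 0.0031). In both genes every tumour lay above every non-tumour sample. A second probe of Cxcl9 gave a difference of 1.96 ± 0.48 (adjusted p = 0.0071 over all probes).

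Among the antiviral effectors the differences ran both ways within families. Oas1a, which makes the 2′-5′ oligoadenylate that activates RNase L, had levels of 4.48, 4.06 and 5.76 in arsenite tumours, against 2.88, 2.10 and 4.46 in arsenite non-tumour liver. The groups overlapped because non-tumour sample 3 lay above tumour sample 2, and the difference was 1.63 ± 0.60 (adjusted p = 0.047), or 1.63 ± 0.16 with the block (adjusted p = 0.0071). Oas2 of the same family had -0.42, -1.26 and 0.51 in arsenite tumours, against 0.15, -0.40 and 1.22 in arsenite non-tumour liver, lower in each number, by 0.72 on the log2 scale (SE 0.53, adjusted p = 0.29; with the block SE 0.11, adjusted p = 0.015). Oasl1, a relative reported in mouse to restrain Irf7 translation, had 3.02, 3.1 and 4.74 in arsenite tumours, against 3.84, 3.98 and 5.23 in arsenite non-tumour liver, with an adjusted p of 0.26, or 0.018 with the block. Oas1a was thus higher and Oas2 and Oasl1 lower in tumours within every number.

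Ifi44, a cytoplasmic protein that restrains viral growth, had levels of 0.93, 0.86 and 3.28 in arsenite tumours, against -0.78, -0.94 and 1.72 in arsenite non-tumour liver. Its difference within numbers was 1.71, 1.80 and 1.56, the most even of the large ones, and it was called with the block (1.69 ± 0.10, adjusted p = 0.0033) and not without it (SE 0.77, adjusted p = 0.096). Usp18, the protease that removes Isg15 and damps receptor signalling, had 2.21, 1.60 and 3.72 in arsenite tumours, against 1.15, 0.63 and 3.44 in arsenite non-tumour liver (difference 0.77, adjusted p = 0.39 without and 0.045 with the block). Isg15 differed by 0.70 (adjusted p = 0.44 without and 0.023 with the block). Ifit2, another RNA-binding member of the Ifit family, was not called (adjusted p = 0.092 without and 0.078 with the block). Its probe was well above background on 3 tumour arrays and 2 non-tumour arrays, so the fitted 1.57 ± 0.71 is not an exact difference. The Ifit2 probe passed the filter only through the arsenite tumours. Ifit1 and Ifit3 differed by 0.37 and 0.14, with both signs among the 3 numbers.

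Lower in tumours within every number, besides Oas2 and Oasl1, were Irf7, Irf9, Mx2, Bst2, Rtp4 and Gbp6. Irf7, the factor that amplifies type I interferon production, had levels of 0.27, -0.23 and 2.16 in arsenite tumours, against 1.17, 1.07 and 2.55 in arsenite non-tumour liver, with differences of -0.90, -1.29 and -0.39 (mean -0.86, adjusted p = 0.27 without and 0.039 with the block). Rtp4, a chaperone of membrane receptors, had 3.26, 3.04 and 5.27 in arsenite tumours, against 3.59, 3.59 and 5.72 in arsenite non-tumour liver (difference -0.44, adjusted p = 0.61 without and 0.034 with the block). Bst2, which tethers budding virus to the cell surface, had 5.15, 4.78 and 5.74 in arsenite tumours, against 5.63, 5.76 and 6.06 in arsenite non-tumour liver (difference -0.59 ± 0.23, adjusted p = 0.058, or 0.056 with the block). The antiviral GTPase Mx2 differed by -0.86, Irf9 by -0.25 and Gbp6 by -0.28, none called with or without the block. A second, dimmer Gbp6 probe showed a larger gap, with means of -0.43 in arsenite tumours and 0.76 in arsenite non-tumour liver. Mx1, the other Mx GTPase, was not called either (adjusted p = 0.33, or 0.064 with the block), and its probe too was well above background on 2 non-tumour arrays.

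**Figure D4:**
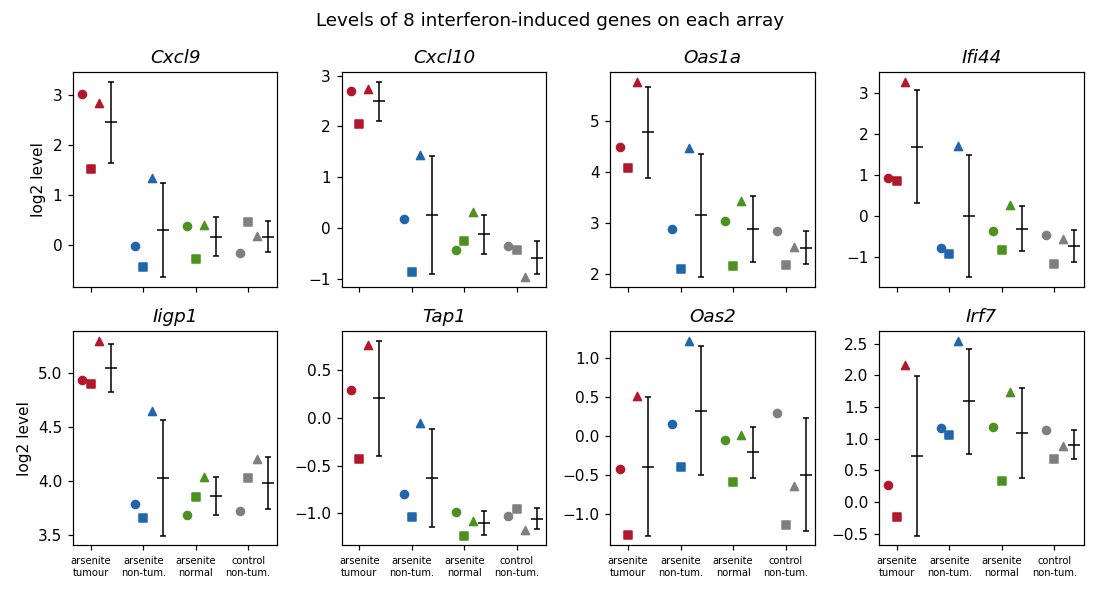
Log2 levels of 8 interferon-induced genes in each sample (1 circle, 2 square, 3 triangle) of 4 groups; black marks are the group mean and SD (n = 3). Cxcl9, Cxcl10 and Iigp1 of arsenite tumours lie above all other samples, while for Oas2 and Irf7 the sample 3 arrays of arsenite tumour and arsenite non-tumour liver are the highest of their groups.

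Iigp1, an interferon gamma-induced GTPase that disrupts pathogen vacuoles, had levels of 4.94, 4.90 and 5.30 in arsenite tumours, against 3.79, 3.66 and 4.65 in arsenite non-tumour liver, a difference of 1.02 ± 0.25 (adjusted p = 0.0061). A second Iigp1 probe gave 1.2 ± 0.24. The related GTPases Igtp and Irgm1 and the guanylate-binding proteins Gbp2 and Gbp3 had both signs among the numbers, and in each of these 4 genes tumour sample 2 was the lowest of all 6 arrays. Igtp, for example, had 4.59, 3.11 and 5.08 in arsenite tumours, against 3.99, 4.16 and 5.61 in arsenite non-tumour liver.

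In antigen processing, Tap1 had levels of 0.29, -0.43 and 0.77 in arsenite tumours, against -0.79, -1.03 and -0.05 in arsenite non-tumour liver, a difference of 0.83 ± 0.30 (adjusted p = 0.041, or 0.016 with the block). The immunoproteasome subunits Psmb8 and Psmb9 differed by 0.45 (adjusted p = 0.21) and 0.18 (adjusted p = 0.68). By their brightest probes, the RNA sensors Ifih1, Ddx58 and Dhx58 and the Z-nucleic acid sensor Zbp1 differed by -0.14 to 0.30 and were not called with or without the block. For Ddx58 the 95% interval of that difference ran from -0.37 to 0.92. Dimmer second probes showed larger gaps. Means in arsenite tumours and arsenite non-tumour liver were 0.16 and -0.58 for Zbp1, and -1.29 and -1.68 for Ddx58. The transcription factors Irf1 and Stat2 differed by 0.21 and 0.02, with intervals of -0.13 to 0.55 and -0.30 to 0.34. Of the remaining members, Rsad2, Xaf1, Parp14 and Lgals3bp differed by -0.04 to 0.15, and Oasl2 by -0.22. Oas3 was not tested because its probe was not well above background on all 3 arrays of any group, and its highest readings were also in samples 3 of arsenite tumour (-2.42) and arsenite non-tumour liver (-1.53).

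Single arrays decided several of these calls. Without arsenite non-tumour sample 3, 8 members were called higher, with Ifi44 (2.56), Usp18 (1.63) and Ifit2 added. Without arsenite tumour sample 3, 3 were called higher and 4 lower, namely Bst2 (-0.85), Irf7 (-1.57), Mx2 (-1.54) and Oasl1 (-1.29). Oas1a and Tap1 lost their call without tumour sample 1 or 3 or non-tumour sample 1 or 2, and 3 members then remained higher. Without both number 3 arrays together, an alternative chosen after seeing the data, 8 members were called higher and 2 lower (Bst2 and Mx2). Cxcl9, Cxcl10 and Iigp1 kept their call in each of these fits. Scaling the arrays by their median instead of the 75th percentile cost Tap1 its call (0.76, adjusted p = 0.063). Over all genes the share of higher calls moved more with scaling, since 36.4% of the called genes were higher as scaled here and 53.2% were with the percentile taken over probes above background on all arrays. The median difference of all genes was then 0.03 in place of -0.13.

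Arsenite tumours were next compared with arsenite normal liver. The comparison shares the tumour arrays with the previous one, so its values stand beside those and do not add to them. Of the 37 members, 6 were called higher and 0 lower (17.2% and 31% of all genes), and the median difference was 0.47, against -0.15 over all genes. Cxcl10 had 2.69, 2.05 and 2.75 in arsenite tumours, against -0.43, -0.26 and 0.31 in arsenite normal liver (difference 2.62 ± 0.48, adjusted p = 0.0012). Cxcl9 differed by 2.28 ± 0.48 (adjusted p = 0.0029), Iigp1 by 1.19 ± 0.25 (adjusted p = 0.0025), Tap1 by 1.31 ± 0.30 (adjusted p = 0.0045) and Oas1a by 1.90 ± 0.60 (adjusted p = 0.024). Psmb8 had 4.08, 3.41 and 4.56 in arsenite tumours, against 3.22, 2.98 and 3.15 in arsenite normal liver (difference 0.90 ± 0.28, adjusted p = 0.022). These 6 genes had groups that did not overlap, as did Ifi44 (2.01 ± 0.77, adjusted p = 0.053) and Ifit2 (adjusted p = 0.12, well above background on 2 of 3 normal arrays), together 8 members with tumours higher, against 21.1% of all genes. Ifit2 passed the filter on dim probes only through the arsenite tumours, so its place in this count depends on its being high there. Ifi44 lay at the threshold: it was called under 9 of 19 alternatives, among them 4 other scalings or background corrections, with adjusted p from 0.014 to 0.18. Without tumour sample 2, 10 members were called higher, with Gbp2, Ifi44, Psmb9 and Zbp1 added. Without tumour sample 3, Oas1a and Psmb8 were no longer called and Bst2 (-0.59), Mx2 (-1.2) and Oasl1 (-1.43) were called lower. Without normal sample 2 or tumour sample 1, Psmb8 missed the threshold, and so did Oas1a without that normal sample. Of the called genes 35.7% were higher as scaled here, against 59.5% with median scaling, where the median difference of all genes was 0.07.

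Arsenite non-tumour liver was then compared with arsenite normal liver, which asks whether liver labelled non-tumour differs from liver labelled normal. No member was called, and neither was any of the 18101 genes (0%) with limma. At an unadjusted p under 0.05 stood 0 members and 6.84% of all genes. The difference was positive for 35 of the 37 members with a median of 0.34, against -0.00 over all genes. Without non-tumour sample 3 the median over members was -0.13. Psmb8 and Psmb9 were the members whose groups did not overlap, both higher in non-tumour liver, which held for 7.88% of all genes. Psmb8 had 3.40, 3.29 and 4.0 in arsenite non-tumour liver, against 3.22, 2.98 and 3.15 in arsenite normal liver (difference 0.45 ± 0.28, adjusted p = 0.80).

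Arsenite non-tumour liver was last compared with control non-tumour liver, the comparison that bears on the exposure of the F0 dams and lies within 1 slide. No member was called, and 1 of the 18101 genes was (0.00552%). The difference was positive for 37 of 37 members, with a median of 0.61, against -0.02 over all genes. That median rested on 1 array: without arsenite non-tumour sample 3 it was -0.00. Isg15 differed by 0.79 ± 0.71 and Ifit1 by 0.87 ± 0.86, with 95% intervals of -0.78 to 2.35 and -1.04 to 2.77. Irf1, the factor with a GAS match printed above, was the member with the smallest p. Its levels were 4.27, 3.84 and 4.38 in arsenite non-tumour liver, against 3.46, 3.60 and 3.54 in control non-tumour liver, a difference of 0.62 ± 0.15 (unadjusted p = 0.0021, adjusted p = 0.51). Irf1 alone of the 37 stood at an unadjusted p under 0.05, against 5.64% of all genes. The groups did not overlap for Irf1, Bst2 and Irgm1, all higher in arsenite non-tumour liver, against 3.63% of all genes. Irf1 in arsenite normal liver had 4.30, 3.99 and 4.03, which also lay above the 3 control non-tumour samples, but those arrays are on another slide.

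Among pathway genes outside the list, 4 of 11 tested genes of the receptor and kinase list were called higher and 1 lower in arsenite tumours against arsenite non-tumour liver, and 5 higher and 0 lower against arsenite normal liver. Over all genes these shares were 17.1% higher and 30% lower in the first comparison, and 17.2% and 31% in the second. The genes called higher include Ifnlr1, which passed the filter on dim probes only through the arsenite tumours, the group where it was high. Ifngr1, the ligand-binding chain of the interferon gamma receptor, had levels of 4.21, 4.21 and 4.08 in arsenite tumours, against 2.29, 2.38 and 2.28 in arsenite non-tumour liver (difference 1.85 ± 0.09, adjusted p = 1.8e-07) and 2.33, 2.18 and 2.26 in arsenite normal liver. Its partner Ifngr2 differed by 0.83 ± 0.09 from arsenite non-tumour and 0.95 ± 0.09 from arsenite normal liver. Il10rb, a shared chain of the interferon lambda receptor, differed by 0.82 ± 0.09 and 0.89 ± 0.09 in these comparisons. Ifnlr1, the specific chain of that receptor, had 0.44, 0.51 and 0.42 in arsenite tumours, at least 13.6-fold higher than in arsenite non-tumour liver and at least 12.3-fold higher than in arsenite normal liver, where no array was well above background. The bound sets each dim signal to the dimmest signal well above background on its array, where that is higher. It holds only as the arrays were scaled and background-corrected here. Over 6 settings of scaling and background the fitted Ifnlr1 difference ran from 1.93 to 5.76 against arsenite non-tumour liver. Against arsenite normal liver it ran from 1.98 to 5.53, and Ifnlr1 was called higher in all 6 settings in both comparisons.

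**Figure D5:**
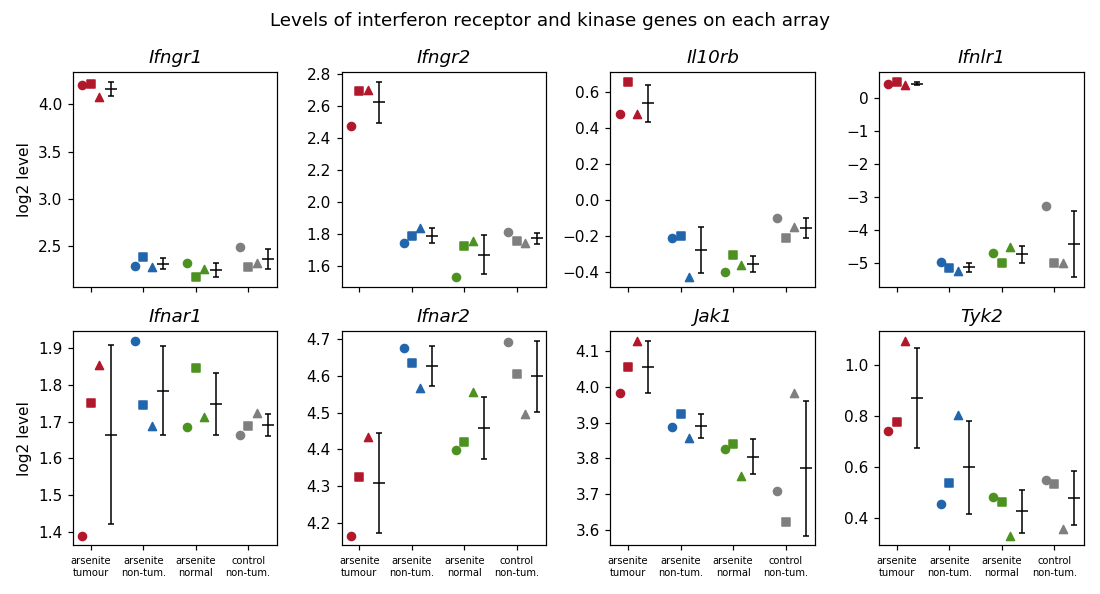
Log2 levels of 8 receptor and kinase genes in each sample (1 circle, 2 square, 3 triangle) of 4 groups, with group mean and SD (n = 3). Ifngr1, Ifngr2, Il10rb and Ifnlr1 lie higher in the 3 arsenite tumours than in all other samples, whereas Ifnar1 overlaps between groups; the Ifnlr1 readings outside tumours are not well above background.

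The type I receptor genes showed smaller differences. Ifnar1 had 1.39, 1.75 and 1.85 in arsenite tumours, against 1.92, 1.74 and 1.69 in arsenite non-tumour liver (difference -0.12 ± 0.12, adjusted p = 0.45). Ifnar2 fell by 0.32 on the log2 scale against arsenite non-tumour liver (SE 0.10, adjusted p = 0.019) and differed by -0.15 from arsenite normal liver (adjusted p = 0.22), and the first call was lost under 3 other scalings of the arrays and with the block (adjusted p = 0.101). Jak1 was not called in any comparison, and Tyk2 was called higher in tumours only against arsenite normal liver (0.44 ± 0.13, adjusted p = 0.014). Among ligands, 5 of the 19 genes on the array were tested, and Ifnb1 and Ifng were not well above background on all 3 arrays of any group.

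Over the whole pathway outside the members, 18 of 115 tested genes were called higher and 16 lower in arsenite tumours against arsenite non-tumour liver, and 28 higher and 16 lower against arsenite normal liver. Over all genes 17.1% were higher and 30% lower in the first comparison, and 17.2% and 31% in the second. Both counts of higher genes include Ifnlr1, which was tested only because its probe passed the filter in arsenite tumours. Other scalings gave 12 to 30 higher and 13 to 18 lower of the 115 against arsenite non-tumour liver, and 28 to 35 higher and 5 to 16 lower against arsenite normal liver. With the block 17 were higher and 20 lower against arsenite non-tumour liver. In the comparisons without tumours 0 of the 115 were called. Of 15 tested signalling genes between sensors and interferon, 3 were higher and 3 lower in arsenite tumours than in arsenite non-tumour liver, and Traf3, an adaptor ubiquitin ligase, was higher by 1.07 ± 0.12 (adjusted p = 6.4e-05). Of 19 MHC class I and peptide-loading genes, 6 were higher and 0 lower (2 to 10 higher under other scalings, and 3 higher and 2 lower with the block), and 10 higher and 0 lower against arsenite normal liver, where H2-T10, a non-classical class I gene, differed by 1.23 ± 0.15 (adjusted p = 9.5e-05). MHC genes resemble each other closely and a probe may bind more than 1 of them, which was not tested. The same holds for close relatives among the members, such as the Ifit, Oas and Gbp families. Of 53 other induced genes, 3 were higher (3 to 8 under other scalings) and 10 lower against arsenite non-tumour liver, and Ifitm1, a membrane protein that blocks virus entry, fell by 1.78 on the log2 scale (SE 0.16, adjusted p = 1.3e-05). In arsenite tumours 11 of 14 macrophage and Kupffer cell markers were lower than in arsenite non-tumour liver and 7 of 14 lower than in arsenite normal liver, while 2 of 7 T and NK cell markers were higher and 1 lower in each of these comparisons. The part of these cells in the members' differences was not tested.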

How the data were processed

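Liver RNA was hybridised to 12 1-colour (Cy3) Agilent mouse arrays annotated on mm9. The deposited scanner tables hold the processed intensity of each spot, background-subtracted by Agilent Feature Extraction 10.7.3.1 per the file headers; the submitters' processing notes name version 12.0.3.1. The deposited value table holds, as its values show, the ratio of that intensity to the array's 75th percentile over all spots, and was used as an alternative. Intensities were divided by the array's 75th percentile over 59305 spots outside controls and log2-transformed. Spots of a probe were averaged, a probe was kept if some group had it well above background on each of its 3 arrays, and each gene was represented by its brightest kept probe. limma 3.58.1 (R 4.3.3) fitted all 12 arrays with 4 contrasts, adjusting over 18101 genes, and was first tested on simulated data. The number of arrays per group limits the precision.

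Samples were grouped by their titles. Equal sample numbers were taken to pair arsenite tumours with arsenite non-tumour liver because each correlation of deviations exceeded 0.1 (0.145, 0.14 and 0.23, against -0.16 to -0.004 for unequal numbers, and 0.143, 0.116 and 0.196 without interferon pathway genes); the labels do not state this pairing, and no other comparison met that rule. Deviations within a group cancel out, so correlations of equal and unequal numbers are not independent of each other. Members and lists were chosen with earlier results of these data known. All members are accounted for: those called are named with values (with the smallest p where fewer than 8 were called), as are the chief receptors, kinases and ligands and up to 6 called pathway genes per comparison. Other members given by value were chosen after their values were seen. Probe names were updated through RefSeq accessions for 27235 probes. Alternatives were other scalings, background correction, filters, probe rule, samples in the fit, the replicate block, array weights, variance prior and leaving out each array.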

Additional observations from a re-analysis of the deposited data

How the results depend on the processing

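Leaving out 1 array at a time, or both number 3 arrays together (chosen after seeing the data), gave 3 to 8 members called higher and 0 to 4 lower in arsenite tumours against arsenite non-tumour liver, and 4 to 10 higher and 0 to 5 lower against arsenite normal liver. Called genes over the whole array then numbered 7351 to 8054 and 7446 to 8115 in these comparisons, 0 to 1 between arsenite non-tumour and arsenite normal liver, and 0 to 3 between arsenite non-tumour and control non-tumour liver. The median difference of the members ran from -0.256 to 0.566, 0.0244 to 0.867, -0.135 to 0.649 and -0.00200 to 0.840 in these 4 comparisons. Without both number 3 arrays the counts were 8 higher and 2 lower against arsenite non-tumour liver and 7 higher and 5 lower against arsenite normal liver, and Rtp4, at 0.02 and not called with all arrays, was called lower against arsenite normal liver (-0.69, in a range of -0.69 to 0.43 over these fits). The cause was not tested.

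With the replicate block, 8 members were called higher and 4 lower in arsenite tumours against arsenite non-tumour liver. Without a filter or with only the 6 arrays compared, 3 were called higher, and with the filter on all 12 arrays or a trended robust prior 1 was called lower. Oas1a lost its higher call in 8 of 19 alternatives and Tap1 in 7. For Oas1a these included the mean of its probes (limma, adjusted p = 0.0505) and the trended robust prior (adjusted p = 0.063). Without a filter 14219 genes were called between arsenite tumour and arsenite normal liver. Between arsenite non-tumour and arsenite normal liver, 1 gene was called with median scaling, normexp, the filter on 12 arrays or the trended prior, and 5 with array weights. Between arsenite non-tumour and control non-tumour liver, 3 genes were called with median scaling, 6 without a filter, 4 with 6 arrays or array weights, and 0 with normexp, the filter on 12 arrays, the block or the trended prior. No member was called in either comparison without tumours under any of these. Sign changes of members called in neither setting were not counted. Slide as a block could not be fitted, because 2 slides each hold 1 group. Dim probes such as that of Ifit2 lie near background, which limits what they can show. The probes of Ifit2 and Mx1 passed the filter only through the arsenite tumours.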

Other observations

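Marco, a scavenger receptor of Kupffer cells and 1 of the 14 macrophage and Kupffer cell markers, was chosen after its values were seen. Its log2 levels were 1.40, 0.66 and 3.62 in arsenite tumours, 1.64, 1.46 and 3.97 in arsenite non-tumour liver, 3.65, 2.57 and 3.56 in arsenite normal liver, and 3.63, 1.41 and 1.10 in control non-tumour liver. Sample 3 was the highest in arsenite tumours and arsenite non-tumour liver, as for the interferon-induced genes, and the lowest in control non-tumour liver. Of the 14 markers, sample 3 was the highest for 6 in arsenite tumours and 9 in arsenite non-tumour liver (33.8% and 27.7% of all genes). The excess was mostly smaller than for Marco. Over samples 1 and 2 it had a median of 0.25 in arsenite tumours and 0.28 in arsenite non-tumour liver, and reached 1 unit for 2 of the 14 in each group.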
